A study of Mus musculus with 8 samples.

Results

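The genes described are 10 macrophage markers among the 35896 genes measured by RNA-sequencing in mouse aorta. They were listed by gene symbol and fall into 3 sets. The general markers are Adgre1, Cd68, Csf1r and Lyz2, the resident markers are Lyve1, Mrc1 and Cd163, and the markers of recruited or lipid-laden macrophages are Trem2, Gpnmb and Itgax. All 10 were among the 17182 genes with enough counts to be tested. The aortas came from male C57BL6 mice given angiotensin II (AngII) by osmotic minipump, implanted at 11 weeks of age, at 2.8 mg/kg/day for 2 weeks. They were taken when the infusion ended (AngII) or after a further 2 weeks (AngII+2W) or 3 weeks (AngII+3W) without it. The CTRL mice were untreated littermates of matched age, and their labels give no time point. Each group has 2 libraries, each from pooled aortic tissue of 2 mice, so 8 libraries hold 16 mice and the spread between libraries is that between pools. The labels name no transgene or reporter, and the tissue was not sorted into cells.

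Macrophages of the arterial wall are in part long-lived resident cells of the adventitia and in part derived from blood monocytes that enter during injury. Their survival depends on the receptor encoded by Csf1r. Resident adventitial macrophages are known for the hyaluronan receptor Lyve1, the mannose receptor Mrc1 and the haemoglobin-haptoglobin receptor Cd163, while Trem2 and Gpnmb mark cells that take up and process lipid and debris. Angiotensin II is known to bring monocytes and macrophages into the aorta. Each of the markers has other sources, since Lyve1 is also made by lymphatic endothelium, Gpnmb by melanocytes and Itgax by dendritic cells. In RNA of unsorted tissue, fewer macrophages and less RNA of a marker in each macrophage cannot be told apart.

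The members lie at separate places in the genome (GRCm38). Cd68 is at chromosome 11, 69664213 to 69666153 on the minus strand, Adgre1 at chromosome 17, 57358691 to 57483527 on the plus strand, and Mrc1 at chromosome 2, 14229392 to 14332057 on the plus strand with the microRNA gene Mir511 inside it on the same strand. Trem2 is at chromosome 17, 48346401 to 48354147 on the plus strand. RefSeq promoters for GRCm38.p6 were at hand for 7 of the 10 members, without Adgre1, Csf1r and Lyve1, and are given as a description. Each window runs from 250 bases before the start of the gene to 50 bases after it, written along the strand of the gene. They were searched on both strands for GAGGAA, the core of the site of PU.1, the transcription factor that specifies macrophages. The following 3 windows held it, with each match in capitals (TTCCTC is the same motif on the other strand).
Cd68, chr11:69666121-69666420, minus strand: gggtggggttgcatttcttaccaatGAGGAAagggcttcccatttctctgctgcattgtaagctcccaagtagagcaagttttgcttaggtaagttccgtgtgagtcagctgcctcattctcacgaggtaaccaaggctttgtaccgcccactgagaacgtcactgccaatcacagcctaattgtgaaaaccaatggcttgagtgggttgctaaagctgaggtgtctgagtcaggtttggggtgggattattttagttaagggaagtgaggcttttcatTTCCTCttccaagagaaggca
Mrc1, chr2:14229164-14229463, plus strand: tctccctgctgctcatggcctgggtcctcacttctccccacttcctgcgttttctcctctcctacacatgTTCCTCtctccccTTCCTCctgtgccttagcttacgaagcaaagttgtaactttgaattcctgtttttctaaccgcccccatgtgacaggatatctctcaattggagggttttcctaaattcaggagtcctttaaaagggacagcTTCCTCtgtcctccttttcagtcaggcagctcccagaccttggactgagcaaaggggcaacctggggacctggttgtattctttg
Trem2, chr17:48346151-48346450, plus strand: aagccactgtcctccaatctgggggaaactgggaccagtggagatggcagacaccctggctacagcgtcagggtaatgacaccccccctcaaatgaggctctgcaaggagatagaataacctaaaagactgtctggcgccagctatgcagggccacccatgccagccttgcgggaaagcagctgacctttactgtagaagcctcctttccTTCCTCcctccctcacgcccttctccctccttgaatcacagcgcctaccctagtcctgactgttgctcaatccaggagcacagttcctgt

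The Cd68 window held the motif at 225 bases before the start and again at base 30 of the gene. The Mrc1 window held it at 180, 167 and 35 bases before the start, and the Trem2 window at 40 bases before it. No match was found in the windows of Lyz2, Cd163, Gpnmb and Itgax. The motif was in 28.3% of all 32851 promoters of the same length, so 3 of 7 members is a description and not a sign of binding. TCANGTG, with N for any base, is a loose form of the E-box letters read by Mitf and related factors that act on lysosomal genes. It was in 1 of the 7 windows (Lyz2, as TCAAGTG, 130 bases before the start) and in 14.3% of all promoters. This too is a description and not a sign of binding.

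In untreated aorta the order of the members is best read per length of transcript, in CPM (counts per 1000000 counts of a library, scaled between libraries by TMM) divided by the kilobases of annotated exon. Lyz2, which encodes the lysozyme secreted by macrophages and other myeloid cells, stood alone at 96.7 and 82.9 CPM per kb in the 2 CTRL libraries. Mrc1 (mean 10.2), Csf1r (8.63), Cd163 (8.19), Lyve1 (6.11), Adgre1 (4.42) and Cd68 (4.04) followed. Each of these 6 overlapped its neighbours within the 6 between libraries, so neighbouring ranks are not separated by the spread, while both libraries of Mrc1, Csf1r and Cd163 were above both of Adgre1 and Cd68. Gpnmb (1.17), Trem2 (0.613) and Itgax (0.569) formed the bottom of the order, and the libraries of Trem2 and Itgax overlapped. The 3 markers of recruited or lipid-laden cells were thus detected in CTRL, with each library of each gene above the detection floor of 3 counts, which was 0.140 to 0.165 CPM. Under AngII the mean per kb of Lyz2 was 265.6, with Mrc1 at 33.4 and Csf1r at 22.7 next, and Cd68 (17.7), Adgre1 (15.6) and Cd163 (14.5), whose libraries overlapped, stood above Lyve1 (8.14).

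**Figure D1:**
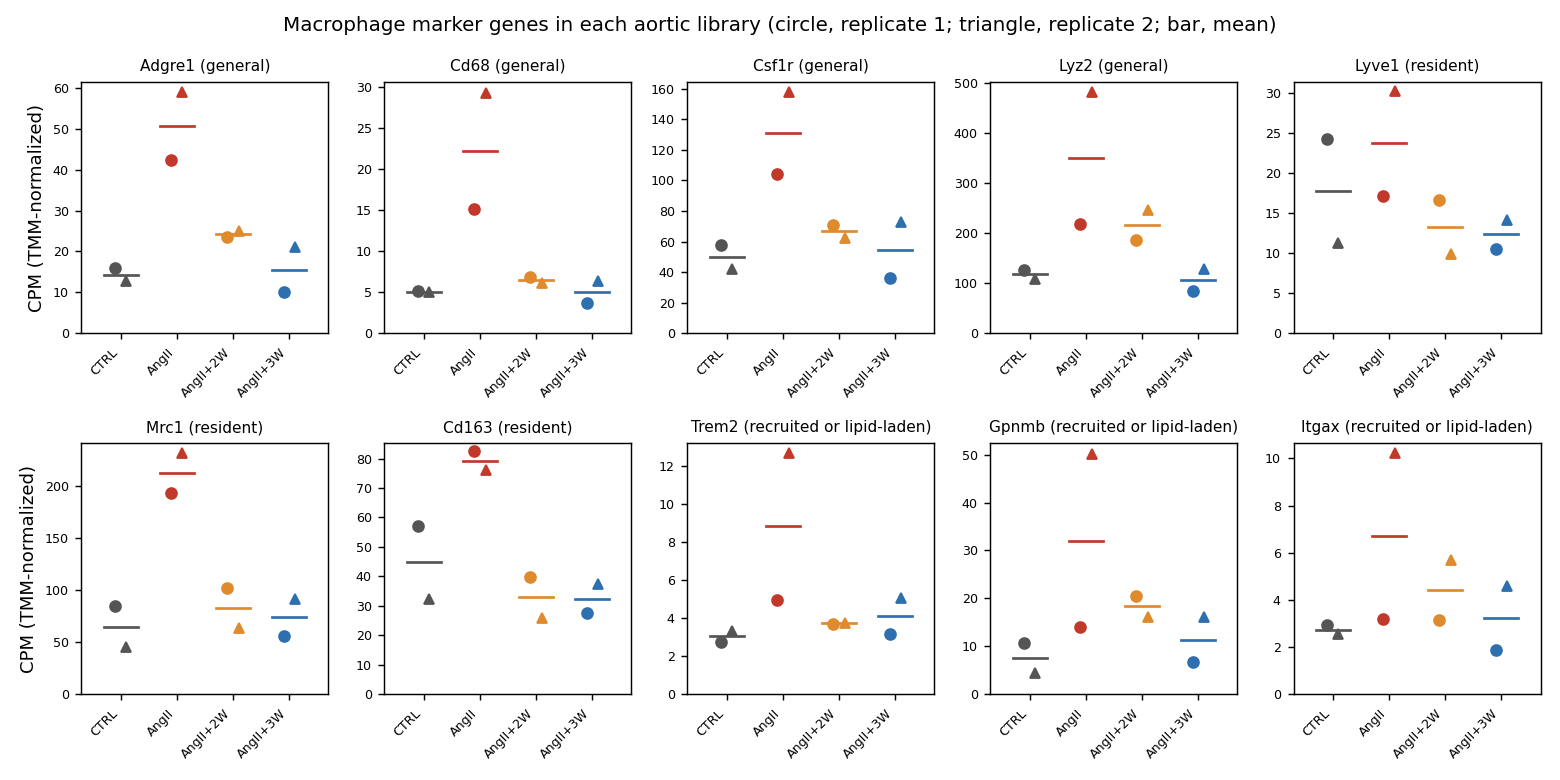
Level of each of the 10 macrophage markers (CPM after TMM scaling, linear axes from 0) in the 2 libraries of each group, with circles for replicate 1, triangles for replicate 2 and bars for the mean. In 9 of the 10 panels both AngII libraries lie above both CTRL libraries, and Lyve1 is the exception.

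At the end of the infusion the general markers Cd68 and Adgre1 and the resident marker Mrc1 were higher than in CTRL by 4.38-fold, 3.54-fold and 3.28-fold. All 10 members had a positive difference, from 0.42 for Lyve1 to 2.13 for Cd68 on the log2 scale, with a median of 1.55 against -0.01 over all genes tested. The 3 of 10 passed an FDR of 0.05 (edgeR's quasi-likelihood test, Benjamini-Hochberg adjusted over all genes), where 2.90% of all genes tested passed it as higher. An unadjusted p below 0.05 was reached by 8 members, against 10.9% of all genes as higher. Both AngII libraries were above both CTRL libraries in 9 members, against 24.4% of all genes.

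Cd68 encodes a glycoprotein of macrophage lysosomes. Its level was 15.2 and 29.2 CPM in the AngII libraries against 5.16 and 4.99 in CTRL. The libraries of CTRL lay close together and far below both AngII libraries, and the log2 difference was 2.13 (SE 0.359, FDR = 0.0210). Adgre1 encodes F4/80, the classic surface marker of mouse macrophages. Its level was 42.3 and 58.9 CPM under AngII and 15.9 and 12.7 in CTRL, which did not overlap (1.82, SE 0.328, FDR = 0.0258). Csf1r, the receptor for the growth factors of macrophages, stood at 104.0 and 158.0 CPM under AngII and 57.6 and 42.1 in CTRL. The groups were apart, and the log2 difference of 1.39 (SE 0.345) had an FDR of 0.0644. Lyz2 was at 217.5 and 481.6 CPM under AngII and 127.2 and 109.1 in CTRL, again without overlap, and its log2 difference was 1.56 (SE 0.373, FDR = 0.0576). Lyz2 shares 95.8% of its bases with its neighbour Lyz1 over 96.0% of the transcript, so reads may be split between them, and Lyz1 stood at 3.01 to 7.52 CPM over the 8 libraries. The last exons of Csf1r overlap Hmgxb3 on the other strand, and the strand setting of the counting is not given in the sources used here.

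Among the resident markers, Mrc1 stood at 193.0 and 232.1 CPM under AngII and at 84.4 and 45.3 in CTRL. The lower AngII library was above the higher CTRL library, and the log2 difference was 1.71 (SE 0.371, FDR = 0.0426). This call was lost with the replicate number as a block (FDR = 0.0616), by library totals alone and by the robust fit (FDR = 0.0517 in both). Cd163 was at 82.4 and 76.1 CPM under AngII and 57.1 and 32.4 in CTRL. The CTRL libraries of Cd163 differed more from each other than the AngII libraries did, and the log2 difference of 0.83 (SE 0.302) had an FDR of 0.176. Lyve1 was at 17.2 and 30.3 CPM under AngII against 24.3 and 11.3 in CTRL. These groups overlapped, and the log2 difference was 0.42 (SE 0.424, FDR = 0.657), which became -0.054 without AngII replicate 2 and was also below 0 without CTRL replicate 2.

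The markers of recruited or lipid-laden cells had large differences with a large spread. Trem2, a lipid-sensing receptor, was at 4.97 and 12.7 CPM under AngII and 2.73 and 3.34 in CTRL. Gpnmb, a glycoprotein of lysosomes in lipid-loaded macrophages, was at 13.9 and 50.1 CPM under AngII and 10.8 and 4.47 in CTRL. Itgax, the integrin chain CD11c, was at 3.19 and 10.2 CPM under AngII and 2.92 and 2.54 in CTRL. None of the 3 overlapped between groups, but in each the first AngII library was nearer to CTRL than to the second AngII library in CPM. Their log2 differences were 1.54 (SE 0.438, FDR = 0.0917), 2.08 (SE 0.677, FDR = 0.134) and 1.30 (SE 0.608, FDR = 0.286).

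The AngII libraries differed from each other in the members. The level in replicate 2 was above that in replicate 1 in 9 of the 10, and by 1.5-fold or more in 7, where 8.93% of all genes tested were higher by as much. The ratio was 3.60 for Gpnmb, 3.21 for Itgax, 2.56 for Trem2, 2.21 for Lyz2 and 1.93 for Cd68. It was smaller for Adgre1 (1.39) and Mrc1 (1.20), and Cd163 stood at 0.923. The AngII+3W libraries also differed, with replicate 2 above replicate 1 in all 10 members and by 1.5-fold or more in 8, against 11.2% of all genes. The calls changed when single libraries were left out. Without either AngII+2W library the log2 differences of Adgre1, Cd68 and Mrc1 stayed at 1.82, 2.13 and 1.71. The AngII+2W libraries bear on these calls through the shared estimate of the spread. The count of 3 members became 0 when AngII replicate 2, either AngII+2W library or either CTRL library was left out, and 5 without either AngII+3W library, which enter through the shared estimate of the spread. The log2 difference of Cd68 was 1.58 (FDR = 0.135) without AngII replicate 2 and 2.53 (FDR = 0.0340) without AngII replicate 1. Those of Adgre1 and Mrc1 without AngII replicate 2 were 1.56 (FDR = 0.179) and 1.57 (FDR = 0.233). Without AngII replicate 1 both calls were lost as well, at 2.04 (FDR = 0.0656) for Adgre1 and 1.84 (FDR = 0.114) for Mrc1.

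**Figure D2:**
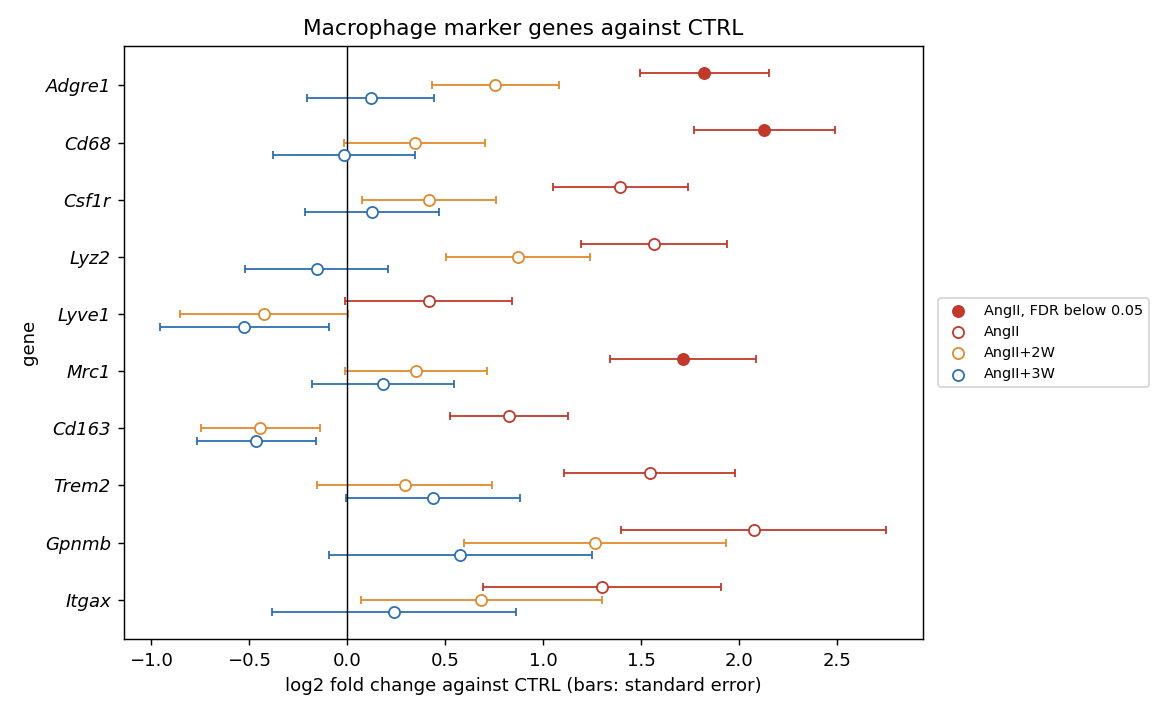
Log2 fold change against CTRL of each marker in the AngII, AngII+2W and AngII+3W groups (edgeR, bars are standard errors), with filled points for an FDR below 0.05. The filled points are Adgre1, Cd68 and Mrc1 under AngII, and the AngII+3W points lie between -0.52 and 0.58.

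At 2 weeks after the infusion no member passed the FDR threshold against CTRL, and neither did any other gene (0%). An unadjusted p below 0.05 was reached by 2 members, against 10.7% of all genes. They were Lyz2, at 185.6 and 246.7 CPM against 127.2 and 109.1 in CTRL, and Adgre1, at 23.4 and 24.9 CPM against 15.9 and 12.7. Their log2 differences were 0.87 (SE 0.367, FDR = 0.457) and 0.76 (SE 0.324, FDR = 0.464). Both libraries were above CTRL in 7 members, the 4 general markers and the 3 of recruited or lipid-laden cells, against 21.7% of all genes. Among these Gpnmb, at 20.5 and 16.1 CPM, had the widest difference (1.27, SE 0.670, FDR = 0.564). Csf1r, at 70.8 and 62.5 CPM, was nearer to CTRL (0.42, SE 0.341, FDR = 0.737). Trem2 stood at 3.69 and 3.76 CPM, just above the CTRL libraries, and Itgax at 3.13 and 5.69. Among the resident markers the groups overlapped. Mrc1 was at 101.8 and 63.5 CPM (0.35, SE 0.363, FDR = 0.800), and Lyve1, at 16.6 and 9.88 CPM, and Cd163, at 39.9 and 25.9 CPM, were on the other side of 0 (-0.42 and -0.44).

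At 3 weeks after the infusion no member passed the threshold against CTRL, where 0.285% of all genes did, and none had an unadjusted p below 0.05, against 12.5% of all genes. The lowest FDR was 0.577, for Cd163. No member had groups that did not overlap, while 38.1% of all genes were apart in either direction. Log2 differences ran from -0.52 for Lyve1 to 0.58 for Gpnmb, with 6 above 0 and 4 below, and leaving out 1 library changed the direction of every member but Trem2. Cd68 stood at 3.66 and 6.39 CPM and Csf1r at 36.0 and 73.0 CPM, on both sides of the CTRL libraries. Mrc1 was at 55.6 and 91.8 CPM, Lyve1 at 10.6 and 14.2 CPM and Cd163 at 27.4 and 37.4 CPM. The second library was the higher in each of these genes. It was so too in Trem2 (3.17 and 5.05 CPM), Gpnmb (6.72 and 16.0 CPM) and Itgax (1.88 and 4.57 CPM). The AngII+3W replicate 1 library, the lower for each member, also held the most RNA of striated muscle (0.478% of counts for cardiac and 0.122% for skeletal genes), and whether this has a part in these values was not tested.

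Against the end of the infusion, all 10 members were lower at 2 and at 3 weeks, and both comparisons share the AngII libraries. Without AngII replicate 2 the difference of Itgax was 0.47 at 2 weeks and 0.016 at 3 weeks and that of Gpnmb was 0.40 at 2 weeks, on the other side of 0. At 2 weeks no member passed the FDR threshold as lower, against 0.140% of all genes, 6 had an unadjusted p below 0.05, against 8.45%, and 7 lay below both AngII libraries, against 27.5%. Cd68 was nearest, at 6.81 and 6.07 CPM (-1.79, SE 0.353, FDR = 0.0806). At 3 weeks Cd68 was 4.42-fold lower and passed the threshold (-2.14, SE 0.361, FDR = 0.0413), where 1.32% of all genes were called lower. Adgre1, at 10.1 and 21.0 CPM, had an FDR of 0.0516 (-1.70, SE 0.327). An unadjusted p below 0.05 was reached by 7 members, against 10.4% of all genes, and 7 did not overlap, against 24.2%. The 3 markers of recruited or lipid-laden cells overlapped with AngII in this comparison, where their second library was above the first AngII library. The call of Cd68 was lost without AngII replicate 2, AngII+3W replicate 1, or any CTRL or AngII+2W library, with an FDR between 0.0757 and 0.227, and it stood at 0.0466 without AngII replicate 1 and 0.0181 without AngII+3W replicate 2. It was also lost by library totals alone (FDR = 0.0527) and with only the 2 groups compared (FDR = 0.176).

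Between 2 and 3 weeks no gene passed the FDR threshold (0%). Lyz2 alone among the members had an unadjusted p below 0.05 (8.83% of all genes), at 84.7 and 127.6 CPM against 185.6 and 246.7, a log2 difference of -1.03 (SE 0.369, FDR = 0.472). With Adgre1 and Gpnmb it made 3 members whose AngII+3W libraries were both lower, against 19.7% of all genes.

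Each resident and recruited marker was also set against the mean of the 4 general markers in its own library (difference of log2 CPM), a description that does not depend on library scaling. From CTRL to AngII the mean over the 3 resident markers moved by -0.63, where the SD between libraries of a group was 0.404. Lyve1 moved by -1.21 and Cd163 by -0.79, with both AngII libraries below both CTRL libraries, while Mrc1 moved by 0.11 with overlap. Lyve1 stood at -0.20 and -1.03 in CTRL and at -1.84 and -1.82 under AngII. The recruited or lipid-laden markers moved by -0.23 (SD 0.303), which became 0.18 without AngII replicate 1 and -0.64 without AngII replicate 2, and Itgax (-0.62) was lower in both AngII libraries while Gpnmb (0.25) and Trem2 (-0.30) overlapped. Within the general set itself Cd68 moved by 0.36, Csf1r by -0.29 and Lyz2 by -0.21. At 3 weeks Gpnmb (0.61) and Trem2 (0.43) were on the higher side of CTRL and Lyve1 (-0.40) and Cd163 (-0.38) on the lower. With 2 libraries in a group an exact test cannot give a p below 0.33, and none was made.

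**Figure D3:**
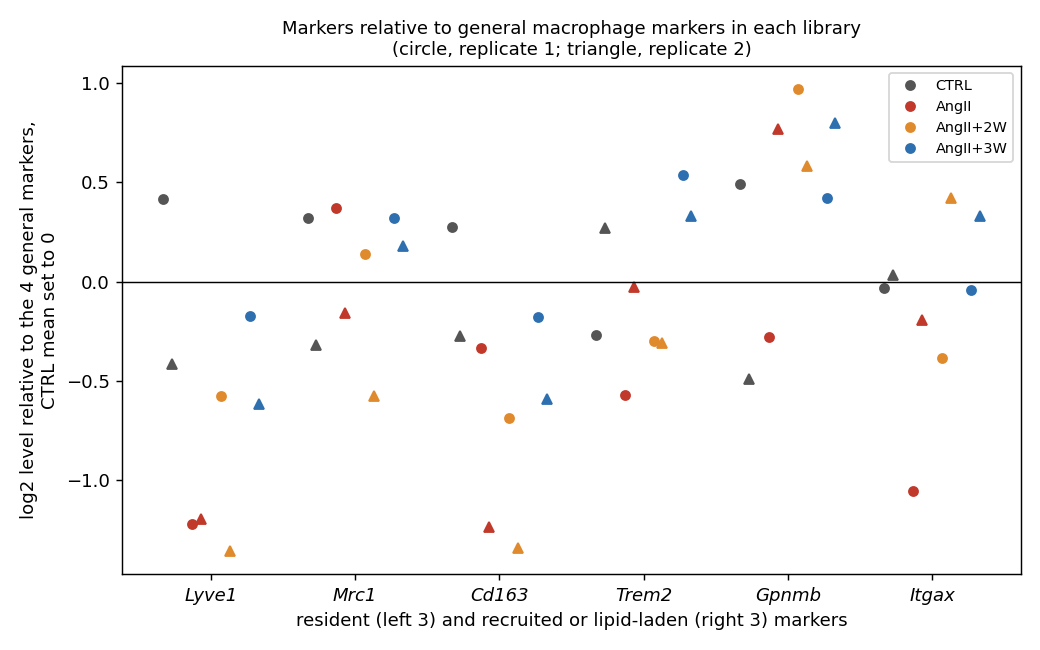
Log2 level of each resident and recruited or lipid-laden marker minus the mean log2 level of the 4 general markers in the same library, with the CTRL mean of each gene set to 0 (circles replicate 1, triangles replicate 2). Both AngII points of Lyve1 and Cd163 lie below both CTRL points, whereas the Mrc1 and Trem2 groups overlap.

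Other genes of macrophages were read from lists that stand beside the members. Of 20 further general macrophage and myeloid genes, 8 passed the threshold as higher under AngII and none as lower, with a median of 1.39. A positive difference was seen in 18 of them and a negative one in 2, Mertk and Lyz1. Mertk was at 40.6 and 52.1 CPM under AngII and 102.1 and 65.2 in CTRL, without overlap. Ptprc, which encodes the pan-leukocyte protein CD45, was at 64.8 and 94.3 CPM against 32.9 and 31.5 (1.30, SE 0.177, FDR = 0.0125). Ms4a7 (2.22, FDR = 0.0151) and the tetraspanin Cd53 (1.79, FDR = 0.0156) also rose. Ptprc stayed above both CTRL libraries at 2 weeks (47.1 and 49.0 CPM) and 3 weeks (44.0 and 48.0 CPM), without passing the threshold. Of the 20 genes, 18 had a positive difference from CTRL at 2 weeks, and 9 had a positive and 11 a negative one at 3 weeks. Of 16 further resident macrophage genes 3 rose, with a median of 0.79. The chemokine Ccl8 was at 14.5 and 19.9 CPM against 1.27 and 1.18 in CTRL, a log2 difference of 3.81 (SE 0.384, FDR = 0.00642). The lectin Clec10a (1.52, FDR = 0.0357) and the sialic acid receptor Siglec1 (1.47, FDR = 0.0413) rose with it.

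Of 18 tested genes of Trem2 signaling and lipid-associated macrophages 8 rose and 1, Cd9, fell (-0.66, FDR = 0.0455), with a median of 0.63. The protease gene Ctsk, also made by fibroblasts and osteoclasts, stood at 43.8 and 64.3 CPM against 8.58 and 6.30 (2.86, SE 0.320, FDR = 0.00778). The legumain gene Lgmn (1.20, FDR = 0.0157), the cholesterol exporter Abcg1 (1.06, FDR = 0.0170) and the lysosomal lipase Lipa (1.03, FDR = 0.0180) rose in both libraries. Spp1, which encodes osteopontin and was chosen after its values were seen, was at 3.996 CPM in one AngII library and 109.6 in the other, against 0.828 and 0.376 in CTRL (6.55, SE 1.49, FDR = 0.0497). Among 6 scavenger receptors Msr1 rose (1.75, FDR = 0.0218), with a median of 0.26 for the list.

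Of 8 tested monocyte genes 2 rose. Ccr2, the chemokine receptor through which monocytes leave the marrow, was at 39.2 and 42.5 CPM against 11.6 and 9.13, and the AngII libraries agreed closely (1.98, SE 0.221, FDR = 0.00778). Chil3 was at 3.08 and 1.85 CPM against 0.633 and 0.376 (2.27, FDR = 0.0397). Of 7 tested classical activation genes none passed, 6 had a positive difference and the median was 0.61, with Nos2 at 0.25 (FDR = 0.718) and Ptgs2 at -0.13 (FDR = 0.932). Of 5 alternative activation genes Retnla fell, from 27.0 and 16.7 CPM to 8.75 and 8.39 (-1.35, SE 0.274, FDR = 0.0364). The other 4 had positive differences that did not pass, and the median of the list was 0.36. Of 5 tested ligands and receptors of the colony-stimulating factors none passed. Csf1, the main ligand of the Csf1r product, was at 0.26 (FDR = 0.676) and Csf2rb at 1.09 (FDR = 0.0986).

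**Figure D4:**
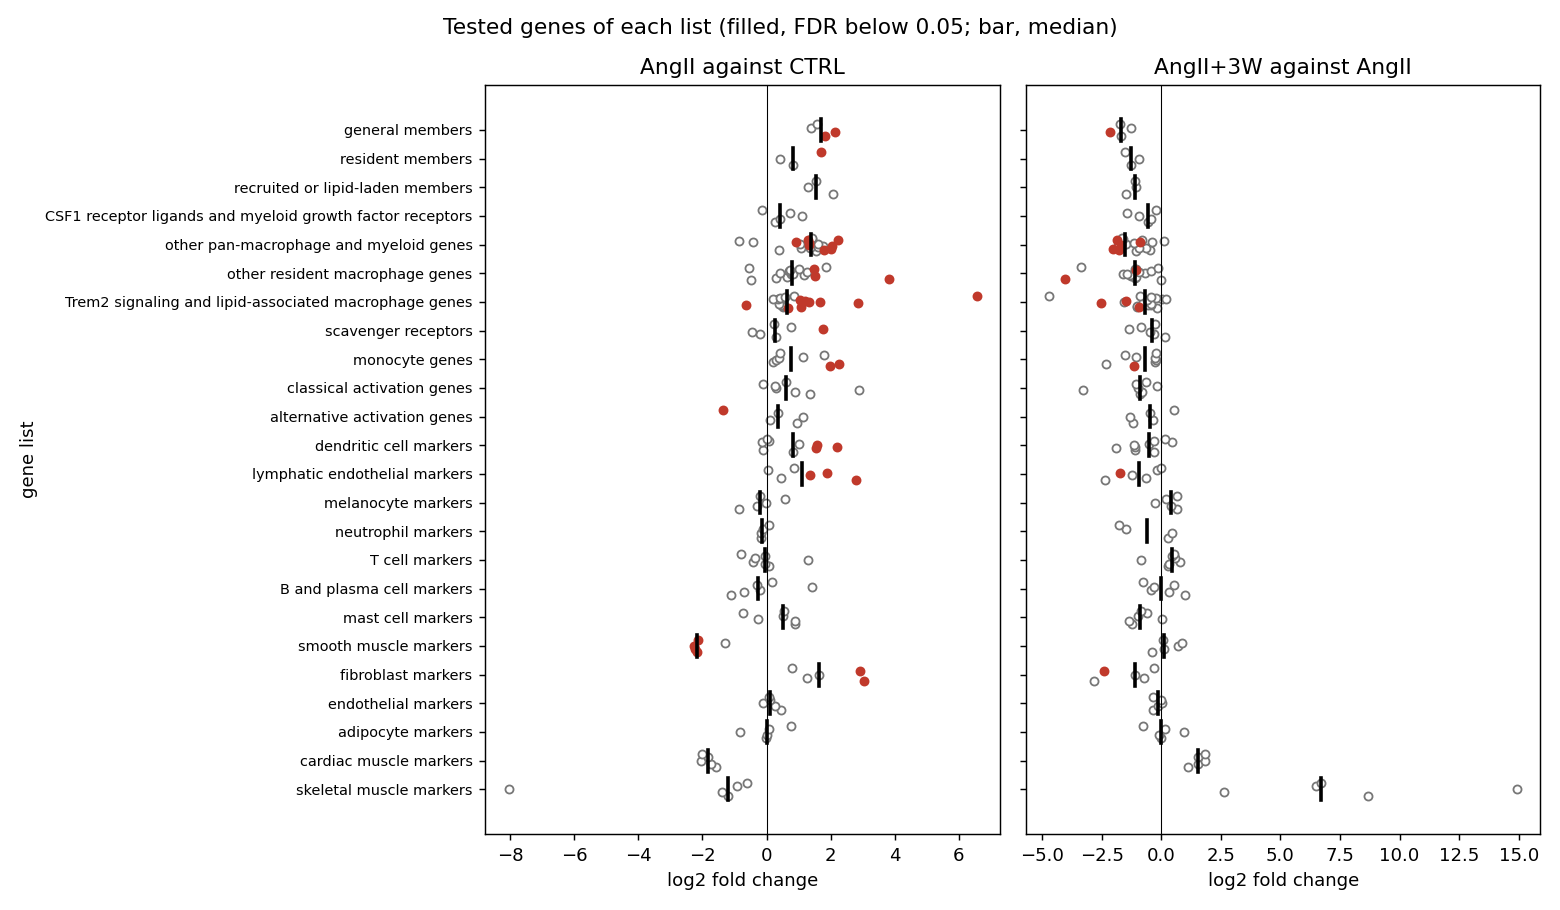
Log2 fold change of each tested gene by list for AngII against CTRL and for AngII+3W against AngII (filled points, FDR below 0.05, bars, list medians). Under AngII the macrophage lists lie on the higher side, with medians of 0.63 to 1.39 for the further general, resident and lipid-associated genes. So do the fibroblast (1.64), lymphatic endothelial (1.10) and dendritic cell (0.83) lists. Smooth muscle genes lie near -2.18, and the medians of endothelial and adipocyte genes are 0.09 and 0.01.

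Over all 158 tested genes that stand beside the members, 30 rose and 6 fell under AngII, against 2.90% and 2.20% of all genes tested. None passed against CTRL at 2 weeks, and at 3 weeks 4 passed as lower, against 0.268% of all genes, Cd9 (-1.07, FDR = 0.0455) and the smooth muscle genes Acta2 (-2.56), Tagln (-2.09) and Cnn1 (-2.13). The 36 calls under AngII became 0 without AngII replicate 2 or CTRL replicate 1, 11 without CTRL replicate 2, 21 without AngII replicate 1 and 14 without either AngII+2W library, as counts that do not say which genes were called. The 4 calls at 3 weeks became 11 without AngII+3W replicate 2, 2 without CTRL replicate 2 and 0 without any other library, and 0 by library totals alone, with only the 2 groups compared or with the replicate block. From AngII to AngII+3W 13 of these genes fell, against 1.32% of all genes, and none rose. Their number was 0 without AngII replicate 2 or with only the 2 groups compared, 1 without either AngII+2W library or AngII+3W replicate 1, 4 without either CTRL library, 7 by library totals alone and 40 without AngII+3W replicate 2. From AngII to AngII+2W 1 fell, Ccl8, to 1.49 and 1.24 CPM, and the count was 0 without any single AngII, AngII+2W or CTRL library and 10 and 11 without AngII+3W replicates 1 and 2.

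The genes of the other cells that make single members were measured in the same libraries. For Lyve1, the summed level of 6 lymphatic endothelial genes was 99.8 and 159.6 CPM under AngII and 62.2 and 62.7 in CTRL. Pdpn (1.90, FDR = 0.0116), Ccl21a (2.78, FDR = 0.0208) and Mmrn1 (1.36, FDR = 0.0228) rose, while the defining factor Prox1 was at 0.03 (FDR = 0.985). Prox1 was at 10.6 and 12.2 CPM under AngII and at 15.1 and 7.20 in CTRL, on both sides of AngII. It was highest in AngII+3W replicate 1 (15.6 CPM) and CTRL replicate 1, the libraries with the most cardiac muscle counts. Whether muscle RNA has a part in its level was not tested. Pdpn is also made by fibroblasts and macrophages, and Ccl21a has near-identical copies in the genome, so its counts are uncertain. For Gpnmb, 5 tested melanocyte genes did not pass, and the summed level of the list was 26.2 and 31.2 CPM under AngII and 45.5 and 31.1 in CTRL. Mitf was the largest part of this sum, at 18.8 and 23.5 CPM under AngII and 32.4 and 20.1 in CTRL. Tyrp1 was at or under 3 counts in each library. For Itgax, 3 of 9 dendritic cell genes rose, Flt3 (1.57, FDR = 0.0287), Clec9a (2.21, FDR = 0.0408) and Cd209a (1.54, FDR = 0.0499). Of the 9, 7 had a positive difference, with a median of 0.83. The summed level of the 9 was 66.0 and 59.6 CPM under AngII and 44.9 and 58.8 in CTRL. Zbtb46 was the largest part of this sum, at 42.6 and 37.5 CPM under AngII and 33.1 and 46.5 in CTRL. The part of these cells in the levels of Lyve1, Gpnmb and Itgax was not tested.

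No gene passed among 4 tested neutrophil, 7 T cell, 6 B and plasma cell and 6 mast cell markers, and the neutrophil marker Ly6g was at or under 3 counts in each library. The plasma cell gene Jchain, at 11.7 and 45.4 CPM under AngII, also stood higher in the second library (1.43, FDR = 0.188). Among the cells of the wall, 2 of 5 fibroblast markers rose, Lum (2.90, FDR = 0.0150) and Col1a1 (3.03, FDR = 0.0322), and their summed level was 7800 and 12710 CPM under AngII against 1966 and 1218 in CTRL. The smooth muscle markers Acta2, Myh11, Tagln and Cnn1 fell, with a summed level of 1596 and 2039 CPM for the list of 5 against 8895 and 6931. No gene passed among 5 endothelial (median 0.09), 5 adipocyte (0.01), 5 cardiac muscle (-1.81) and 5 skeletal muscle markers (-1.22). The fibroblast level was thus higher in the second AngII library, as were 9 of the 10 members, and its part in the members' values was not tested.

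Libraries held 18130441 to 21498200 counts and 8.15 to 18.3% of mitochondrial counts. The mitochondrial share was lowest in AngII replicate 2, where the members took the most counts (0.119%), and highest in AngII+3W replicate 1, where they took the fewest (0.0223%), and its part in the members' values was not tested. Cardiac muscle genes were highest in AngII+3W replicate 1 (0.478% of counts) and CTRL replicate 1 (0.437%), and skeletal muscle genes in AngII+3W replicate 1 (0.122%, against at most 0.00717% elsewhere). Without both of these libraries the members called under AngII numbered 5, and those called at 3 weeks against AngII 0.

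The genes with the closest pattern over the 8 libraries were listed for each set as a description, by Pearson correlation of log2 CPM with the mean standardized level of the set, for genes with a mean of at least 1 CPM. The general markers were followed most closely by Galnt10 (r = 0.994) and Cmtm3, and by the matrix genes Col3a1, Col1a1 and Sfrp4. Col3a1 stood at 8392 and 13396 CPM under AngII, 3143 and 2546 at 2 weeks, 958.9 and 2207 at 3 weeks and 1818 and 1246 in CTRL, and so was higher in the second library within AngII, as were 9 of the 10 members, and within AngII+3W, as were all 10. The resident markers were followed by Plod2, Slc41a2, Ugdh, Mia3 and Egfr, and those of recruited or lipid-laden cells by Kcnab2, P2rx4, Clec7a, Nlrp3 and Gpr137b, of which Clec7a and Nlrp3 encode an innate receptor and an inflammasome sensor. The libraries share tissue composition and the pools of mice, and leaving out 1 library at a time kept between 4 and 10 of these 15 genes among the closest.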

How the data were processed

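RNA from a part of each aorta, pooled from 2 mice, was sequenced by the authors after depletion of ribosomal RNA, as paired reads on a single lane. Salmon estimated transcript counts against GRCm38 transcripts, and the deposited table holds expected counts per gene, summed from transcripts, as whole numbers without normalization. FastQC, MultiQC and edgeR are also named in the submitters' processing notes. Transcript length offsets were not applied here, and the strand setting is not given in the sources used here.

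Groups were taken from the sample labels. The quasi-likelihood F test of edgeR 4.0.16 (R 4.3.3) was used in its older form after filterByExpr and TMM, with 8 libraries in 1 model, 4 residual degrees of freedom, 6 comparisons and Benjamini-Hochberg adjustment over 17182 genes (FDR, threshold 0.05, two-sided). A standard error is the log2 fold change divided by the square root of F. Log2 CPM used a prior count of 2. The steps were tested on simulated counts. Replicates differed by more than counting noise (chi-square per degree of freedom 12.5 to 86.8). The labels do not say more of the pools. The p-values rest on the spread between pools of mice within groups, estimated over all groups together. The floor of 3 counts covers counting error only. Positions, exon lengths and near-identical copies (BLAST 2.17.0) came from a GRCm38 annotation that matched all 181 list genes, and promoters from RefSeq (GRCm38.p6).

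The members and gene lists were chosen with earlier results of these data known. The text names all members, up to 4 genes of a list with the smallest p under AngII among those past the threshold (otherwise up to 2 with the highest CPM), Ptprc, and the 5 closest genes for each set, except 1 gene that is not reported here. Spp1, Cd9, Mertk, Prox1, Zbtb46, Tyrp1 and Ly6g were named after their values were seen. Alternatives were other scalings, filters, tests (DESeq2 1.42.0, limma 3.58.1 voom, edgeR's likelihood ratio test, newer and robust fits), only the 2 groups compared, a replicate block and leaving out each library.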

Additional observations from a re-analysis of the deposited data

Results flagged for a closer look

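Each difference below was found by a direct test between the end of the infusion and a later time point, for a gene that is a member or is named from the lists. Ccl8 was lower at 2 weeks by a log2 difference of -3.65 (FDR = 0.0290, edgeR's quasi-likelihood test). At 3 weeks Ccl8 (-4.03, FDR = 0.0145), the proteases Ctsk (-2.51, FDR = 0.0209) and Lgmn (-1.50, FDR = 0.0206), and the monocyte receptor Ccr2 (-1.15, FDR = 0.0483) were lower than under AngII. So were the general macrophage genes Cd68 (-2.14, FDR = 0.0413), Ms4a7 (-1.84, FDR = 0.0417) and Cd53 (-1.79, FDR = 0.0277), the lipid exporter Abcg1 (-0.92, FDR = 0.0436), Pdpn (-1.73, FDR = 0.0264) and the fibroblast gene Lum (-2.40, FDR = 0.0413). All these genes had risen under AngII against CTRL, with which these differences share the AngII libraries. Groups of 2 are too small for a search for single outlying libraries.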

How the results depend on the processing

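The log2 difference from CTRL under AngII stayed positive under all 20 alternatives in 9 members, with Cd68 between 1.58 and 2.53 and Adgre1 between 1.56 and 2.04. Lyve1 was the exception, at -0.054 to 1.07 on leaving out 1 library. No difference that passed the threshold changed direction. The number of members called changed with the test. For AngII against CTRL (3 called) it was 2 by library totals alone, 2 by the robust fit, 4 by at least 10 counts in every library, 5 with every gene of at least 1 count, 6 with DESeq2, 7 with the likelihood ratio test, 5 with only the 2 groups compared and 5 without CTRL replicate 1 and AngII+3W replicate 1 together, an alternative chosen after seeing the data. Leaving out 1 library gave 0 to 5. For AngII+2W against AngII (0 called) it was 1 with every gene of at least 1 count, 4 with DESeq2, 3 with the likelihood ratio test, 5 with only the 2 groups compared and 4 without both libraries, with 0 to 2 on leaving out 1 library. For AngII+3W against AngII (1 called) these were, in the same order, 5, 6, 6, 0 and 0, with 0 by library totals alone, 2 by at least 10 counts in every library, 2 by limma-voom, 2 by the newer fit and 0 to 5 on leaving out 1 library. For AngII+3W against AngII+2W leaving out 1 library gave 0 to 1. Against CTRL at 2 and 3 weeks no alternative called a member.

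For the other lists, AngII against CTRL (36 called) gave 63 with DESeq2, 60 with the likelihood ratio test and 0 to 51 on leaving out 1 library. AngII+2W against CTRL (0) gave 14, 14 and 0 to 9, and AngII+3W against AngII+2W (0) gave 12, 11 and 0 to 15. AngII+3W against CTRL (4) gave 9, 8 and 0 to 11, with 0 by library totals alone, 0 with only the 2 groups compared and 0 without both libraries. AngII+2W against AngII (1) gave 35, 29 and 0 to 11, with 8 for every gene of at least 1 count, 2 by the robust fit, 32 with only the 2 groups compared and 29 without both libraries. AngII+3W against AngII (13) gave 52, 50 and 0 to 40, with 7 by library totals alone, 34 for every gene of at least 1 count, 0 with only the 2 groups compared and 6 without both libraries. Over all genes, leaving out 1 library gave 0 to 1504 calls for AngII against CTRL (877) and other alternatives 622 to 1711. The recruited or lipid-laden markers relative to the general ones moved from -0.23 to between -0.64 and 0.18 on leaving out 1 library, the resident ones from -0.63 to between -0.97 and -0.29, and the closest genes kept 4 to 10 of 15. The cause of these changes was not tested.

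Differences of members that did not pass the threshold changed direction as follows on leaving out 1 library. For AngII+2W against CTRL the range was -0.87 to 0.24 for Lyve1, -0.038 to 0.88 for Mrc1 and -0.80 to 0.034 for Cd163. For AngII+3W against CTRL it was -0.56 to 0.55 for Adgre1, -0.53 to 0.33 for Cd68, -0.52 to 0.55 for Csf1r, -0.53 to 0.11 for Lyz2, -0.98 to 0.13 for Lyve1, -0.27 to 0.70 for Mrc1, -0.83 to 0.00065 for Cd163, -0.23 to 1.35 for Gpnmb and -0.59 to 0.74 for Itgax. For AngII+2W against AngII it was -1.46 to 0.40 for Gpnmb and -1.23 to 0.47 for Itgax, and for AngII+3W against AngII -1.89 to 0.016 for Itgax. For AngII+3W against AngII+2W it was -0.94 to 0.13 for Csf1r, -0.45 to 0.31 for Lyve1, -0.62 to 0.20 for Mrc1, -0.32 to 0.30 for Cd163, -0.28 to 0.44 for Trem2 and -1.27 to 0.056 for Itgax. Without CTRL replicate 1 and AngII+3W replicate 1 together, Lyve1 (0.23) and Cd163 (0.023) turned positive for AngII+2W against CTRL, and Cd68 (0.36), Lyz2 (0.22), Lyve1 (0.32) and Cd163 (0.21) for AngII+3W against CTRL. For AngII+3W against AngII+2W so did Csf1r (0.13), Lyve1 (0.095), Mrc1 (0.15), Cd163 (0.18) and Itgax (0.059), and with the replicate block Cd163 (0.026).

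Libraries of 1 number come from different mice. Their deviations correlated between -0.04 and 0.25 across genes between pairs of groups. This correlation cannot show whether libraries of 1 number shared handling, which was not tested. With the replicate block, 3 members were called under AngII against CTRL (Mrc1 at FDR = 0.0616 and Lyz2 at 0.0490), and 0 genes of the other lists for AngII+3W against CTRL. Where 1 library of a group was left, it was assumed to vary like the other groups. With 2 pools in a group, a difference that misses the threshold is not shown to be absent, and Trem2 and Itgax, at 1.88 to 12.7 CPM, rest on the fewest counts.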

Other observations

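Some low-level activation genes stood apart in the second AngII library, and were picked out after their values were seen. The cytokine gene Il1b was at 7.53 CPM there, at 0.972 CPM in the first AngII library and at 0.146 and 0.988 CPM in CTRL (log2 difference 2.89, SE 1.00, FDR = 0.155, edgeR's quasi-likelihood test). Il6 (3.08 CPM, and at most 0.324 CPM in any other library) and the arginase gene Arg1 (4.55 CPM, and at most 0.430 CPM elsewhere) were too low in the other libraries to be tested. Retnla, which is often listed with Arg1 as a gene of alternative activation, was at 8.39 CPM in that library and 8.75 CPM in the first.

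Of the 16 further resident macrophage genes, 14 had a positive difference under AngII and 2 a negative one, with a median of 0.79. The 3 that passed the threshold are named above. Timd4, Cd209f and Folr2, genes of long-lived resident macrophages, were among those that did not pass, and Timd4 was 1 of the 2 negative ones. Timd4 was at 1.30 and 1.42 CPM under AngII and 2.63 and 1.36 CPM in CTRL (-0.55, SE 0.388, FDR = 0.493). Cd209f was at 7.29 and 6.30 CPM against 7.06 and 4.05 CPM (0.29, SE 0.465, FDR = 0.792), and Folr2 at 13.5 and 12.5 CPM against 8.48 and 6.35 CPM (0.81, SE 0.295, FDR = 0.174). These genes too were chosen after their values were seen, and a missed threshold with 2 pools in a group does not show that they did not change.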
